A study of Mus musculus with 4 samples.

Results

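Trim33, Bcas2, Nras and 6 further genes that lie close together on mouse chromosome 3 were followed across libraries of proliferating and neuron-labelled iMOP cells. The 9 genes were Sike1, Nras, Ampd1, Dennd2c, Bcas2, Trim33, Syt6, Olfml3 and Hipk1, out of 49997 gene rows per library. They were chosen by position around Trim33. The place was chosen because Trim33, Dennd2c and Bcas2 had been called higher in the neuron libraries in an earlier fit of the same counts that had the library number as a second term, in which 0.364% of tested genes were called higher. Their differences between the groups, the output of the fits included, are therefore a description and support nothing by themselves. Of the 9 genes, 7 passed the filter on low counts, Ampd1 only through its counts in the neuron libraries, and Syt6 and Olfml3 did not.

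iMOP cells are an immortalized line of otic progenitors, the precursors of the neurons and sensory cells of the inner ear. All libraries carried the wild-type genotype. The proliferating cells were grown in DMEM/F12 with N21 supplement and 20 ng/ml bFGF, a growth factor that keeps progenitors dividing. The neuron cells were kept in Neurobasal medium with N21, L-glutamine and 1 µM K03861, which blocks CDK2, a kinase of the cell cycle. Each group had 2 libraries, numbered 1 and 2, and nothing in the labels says that these came from separate cultures. The spread between them may therefore be technical. All libraries came from this single line, and the labels give no sorting of the neuron cells.

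The 9 genes share a place, not a pathway. Trim33 encodes TIF1-gamma, a chromatin-bound regulator that works with and against SMAD4 in TGF-beta signalling. Bcas2 encodes a core subunit of the PRP19 complex, which activates the spliceosome. Nras encodes a RAS GTPase that passes receptor signals to the ERK kinases, the route that bFGF uses. Hipk1 encodes a nuclear kinase, and Sike1 a suppressor of the kinases TBK1 and IKK-epsilon. Dennd2c encodes a DENN domain protein, a family that activates RAB GTPases of membrane traffic. Ampd1 encodes the muscle form of AMP deaminase, Syt6 a synaptotagmin, and Olfml3 a secreted olfactomedin-like protein. Neighbouring genes in mammals usually have their own promoters and need not change together, although they share chromatin domains and any gain or loss of the DNA that carries them.

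Most counts came from ribosomal RNA. Totals ranged from 3150354 to 32913243 counts per library, and 88.2% to 98.1% of them belonged to 7 ribosomal or rRNA-like genes. The counts that remained numbered 292302 in proliferating 1, 614465 in proliferating 2, 3241915 in neuron 1 and 617872 in neuron 2. Levels below are CPM values taken over these remaining counts. Some markers ran with the labels and others against them. The summed level of 6 genes of otic progenitors was 657 and 482 CPM in proliferating 1 and 2, and 331 and 183 CPM in neuron 1 and 2. The summed level of 5 genes of dividing cells was 222 and 666 CPM in proliferating 1 and 2, and 1827 and 2617 CPM in neuron 1 and 2. That of 8 neuronal genes was 2220 and 1855 CPM against 1402 and 1021 CPM. Relative to the median tested gene, 4 of 7 tested neuronal genes were lower in the neuron library for both numbers, and 1 was higher. Of the 5 genes of dividing cells, 4 were higher for both numbers and 0 lower. Glial genes summed to 729 and 381 CPM against 165 and 40.5 CPM, and genes of hair cells, mesenchyme and immune cells to at most 30.5 CPM in any library. The markers of division thus moved in the same direction as most of the 9 genes, and their part in the results below was not tested.

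The genes span 795.9 kb of chromosome 3, from 102995708 to 103791563 in the mm10 build. Sike1 (102995708 to 103008459), Nras (103058285 to 103067914), Ampd1 (103074014 to 103099720), Dennd2c (103102604 to 103169769), Bcas2 (103171655 to 103179166), Trim33 (103279293 to 103358775) and Syt6 (103575231 to 103645569) lie on the plus strand. Olfml3 (103722222 to 103738001) and Hipk1 (103739815 to 103791563) lie on the minus strand. The plus-strand genes are tightly packed at the left end, with 2883 bases between Ampd1 and Dennd2c and 1885 bases between Dennd2c and Bcas2. A gap of 100.1 kb separates Bcas2 from Trim33, and 216.5 kb separate Trim33 from Syt6.

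Sequence before the transcription start is shown for 3 genes of the packed stretch whose CPM was higher in both neuron libraries. It is also shown for Syt6, a low gene whose CPM was not. RefSeq windows on GRCm38.p6, the assembly of mm10, were found for 6 of the 9 genes. Bases inside any annotated exon were left out, which cut the Nras sequence to 98 bases. Capitals mark GGGCGG, the GC box, and TATAAA, the TATA motif, searched on both strands together with CCAAT. Copies of the GC box may overlap.
Nras, chr3:103058187-103058284, plus strand: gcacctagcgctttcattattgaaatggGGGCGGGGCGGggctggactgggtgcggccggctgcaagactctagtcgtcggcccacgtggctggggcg
Bcas2, chr3:103171405-103171654, plus strand: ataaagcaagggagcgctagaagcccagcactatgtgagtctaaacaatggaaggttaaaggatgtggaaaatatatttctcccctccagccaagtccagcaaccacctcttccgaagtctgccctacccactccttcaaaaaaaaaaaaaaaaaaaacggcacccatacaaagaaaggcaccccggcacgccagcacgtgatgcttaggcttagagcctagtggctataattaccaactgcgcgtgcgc
Dennd2c, chr3:103127306-103127555, plus strand: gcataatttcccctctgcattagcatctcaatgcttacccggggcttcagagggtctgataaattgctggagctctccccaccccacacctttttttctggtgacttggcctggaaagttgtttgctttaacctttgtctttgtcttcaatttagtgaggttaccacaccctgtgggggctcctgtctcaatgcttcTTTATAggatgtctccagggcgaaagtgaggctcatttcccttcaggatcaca
Syt6, chr3:103574995-103575230, plus strand: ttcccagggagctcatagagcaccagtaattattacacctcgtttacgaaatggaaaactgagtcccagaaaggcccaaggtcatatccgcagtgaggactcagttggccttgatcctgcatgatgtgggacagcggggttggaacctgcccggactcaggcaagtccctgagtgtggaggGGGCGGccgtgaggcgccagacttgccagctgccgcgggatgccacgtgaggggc

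The sequences shown differed in length and base composition. The Nras stretch held 2 overlapping GC boxes and was 67.3% G or C, and the Bcas2 window was 48.0% G or C and held none of the 3 motifs. The Dennd2c window, also 48.0% G or C, held 1 TATA motif on the minus strand and 2 CG dinucleotides. Its RefSeq start lies inside the longer gene of the GENCODE annotation. The Syt6 sequence held 1 GC box. Among 32851 windows of 250 bases before RefSeq starts, 32.7% held a GC box, 12.4% a TATA motif and 33.8% CCAAT.

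Trim33 was at 67 and 165 counts in proliferating 1 and 2, and at 1519 and 3068 in neuron 1 and 2. These counts correspond to 229, 269, 469 and 4965 CPM. Neuron 2 stood far above the other 3 libraries, and neuron 1 was the next highest. The labels give only the library numbers and state no pairing. Each neuron library was set against the proliferating library of the same number, as a log2 ratio. The median over tested genes was subtracted from it. For Trim33 this ratio was 0.90 for the libraries numbered 1 (95% exact binomial interval 0.55 to 1.28, counting error only) and 4.33 for those numbered 2 (4.11 to 4.57). These are a 1.86-fold and a 20.1-fold difference.

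Bcas2 was at 22 and 179 counts in proliferating 1 and 2, and at 994 and 1709 in neuron 1 and 2, or 75.3, 291, 307 and 2766 CPM. Proliferating 2 and neuron 1 were close together, and neuron 2 was again the highest. The log2 ratio was 1.87 for number 1 (1.29 to 2.58) and 3.37 for number 2 (3.15 to 3.61). With TMM scaling, which brings the bulk of genes to the same level, the ranges of the 2 groups overlapped, whereas in CPM they did not.

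Nras was at 106 and 157 counts in proliferating 1 and 2, and at 3154 and 922 in neuron 1 and 2, which is 363, 256, 973 and 1492 CPM. Both neuron libraries lay above both proliferating ones. The log2 ratio was 1.29 for number 1 (1.01 to 1.59) and 2.67 for number 2 (2.43 to 2.93).

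The 2 other kinase-linked genes differed from each other. Sike1 had 15, 71, 497 and 325 counts in the order proliferating 1, proliferating 2, neuron 1 and neuron 2, or 51.3, 116, 153 and 526 CPM, with no overlap between the groups. Its log2 ratio was 1.42 for number 1 (0.71 to 2.30) and 2.30 for number 2 (1.94 to 2.71). Hipk1 had 150, 234, 1407 and 960 counts, or 513, 381, 434 and 1554 CPM. Here the groups overlapped, because neuron 1 lay between the proliferating libraries. The log2 ratio of Hipk1 was negative for number 1, at -0.37 (-0.61 to -0.12), and positive for number 2, at 2.15 (1.95 to 2.37). Hipk1 overlaps the antisense gene Gm15886, and with the strand setting of the counting not given, reads could have been assigned to either.

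Dennd2c and Ampd1 were scarce in the proliferating libraries. Dennd2c had 3 and 2 counts there and 131 and 88 in the neuron libraries, or 10.3, 3.26, 40.4 and 142 CPM. Without a prior count its log2 ratio was 1.85 for number 1 (0.27 to 4.14) and 5.58 for number 2 (3.69 to 8.65), so both were positive but poorly fixed by so few counts. Ampd1 had 0 counts in both proliferating libraries, 22 in neuron 1 and 7 in neuron 2, or 6.79 and 11.3 CPM. A count of 0 allows up to 3 counts, and against that limit Ampd1 was at least 2.54-fold higher in neuron 2, with its 7 counts taken as exact. The exact binomial interval, which covers the error of both counts, put the log2 ratio for number 2 at 0.65 or more. For number 1 that limit lay above the level in neuron 1, and a difference was not detectable at this depth.

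Syt6 and Olfml3 were near the limit of detection. Syt6 was at 0 and 11 counts in proliferating 1 and 2, and at 5 and 2 in neuron 1 and 2. Its log2 ratio for number 2, without a prior count, was -2.34 (-5.55 to -0.14). Olfml3 had 0 and 6 counts against 42 and 1, so that neuron 1 was the only library with more than 6 counts. Its log2 ratio for number 2 was -2.46 (-7.99 to 0.58). In the libraries numbered 1, Syt6 and Olfml3 could not be compared closely because proliferating 1 had 0 counts of either. For Olfml3 the exact interval of the log2 ratio reached down to -0.16, so a difference was not detectable at this depth.

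**Figure D1:**
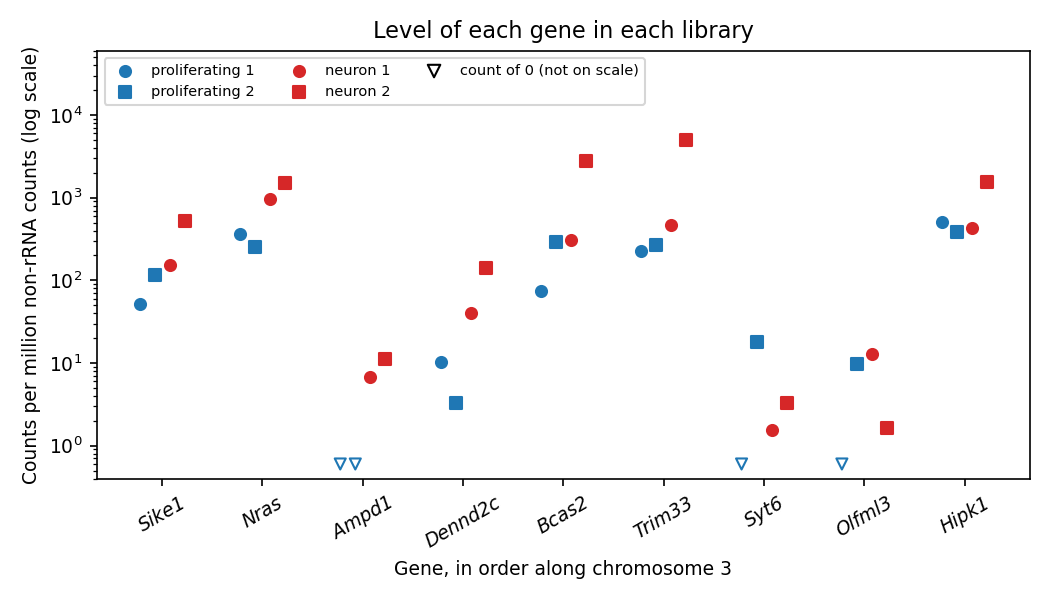
Level of each of the 9 genes in each library, in CPM of non-rRNA counts on a log axis, with genes in chromosomal order, proliferating libraries in blue and neuron libraries in red. Trim33 and Bcas2 reach 4965 and 2766 CPM in neuron 2, while Syt6 and Olfml3 stay below 20 CPM in every library; open triangles mark counts of 0 and are not on the scale.

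Per kilobase of the gene length used by the authors, the order of the levels changed between libraries. Those lengths differ from the union of annotated exons, at 2798 against 10296 bases for Sike1 and 1519 against 4390 for Bcas2. For Hipk1 the lengths were 16939 and 10914 bases, so the order between genes depends on the length used. In proliferating 1, Nras came first at 75.6 CPM per kb, then Bcas2 (49.6), Hipk1 (30.3), Trim33 (25.8) and Sike1 (18.3). In proliferating 2, Bcas2 led at 191.8, followed by Nras (53.2), Sike1 (41.3), Trim33 (30.2) and Hipk1 (22.5). Nras and Bcas2 were close in neuron 1, at 202.7 and 201.8, with Sike1 at 54.8, Trim33 at 52.7 and Hipk1 at 25.6. In neuron 2, Bcas2 reached 1821 and Trim33 558.5, above Nras (310.9), Sike1 (188.0) and Hipk1 (91.7). Dennd2c stayed between 0.390 and 17.1, and Ampd1, Syt6 and Olfml3 below 5 in all 4 libraries. With the authors' lengths, Hipk1, Trim33 and Sike1 traded places between libraries of 1 group. Their order at those lengths is therefore not larger than the spread.

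All 7 tested genes had a larger log2 ratio for number 2 than for number 1. The share of all tested genes with this is not given here. Ratios above 1 were found for 1709 of all tested genes for number 1 and for 2613 for number 2. The median over the 7 was 1.42 for number 1 and 3.24 for number 2, against 0 for all 11525 tested genes by construction. With Ampd1 at its bound of 3 counts the medians were 1.29 and 2.67. Ratios above 1 for both numbers were found for 5 of the 7 (Sike1, Nras, Ampd1, Dennd2c and Bcas2), while 5.47% of all tested genes had this. For Ampd1 this value rests on the prior count. Ratios above 0 for both numbers were found for 6 of 7, against 27.0% of all tested genes, and Hipk1 was the exception. For Ampd1 this too rests on the prior count, as its number 1 ratio was -0.73 at the bound of 3 counts. For number 2, 7 of 7 had a ratio above 2, against 6.46% of all tested genes. Ampd1 is among them only through the prior count, since its ratio was 1.34 at the bound of 3 counts. With 0 counts in both proliferating libraries, Ampd1 passed the filter on low counts only through the neuron libraries. Syt6 and Olfml3, which did not pass it, had number 2 ratios of -1.95 and -1.79. The counts and medians over the 7 therefore depend in part on the filter. Both neuron libraries lay above both proliferating libraries for 5 of 7 with TMM scaling, against 12.6% of tested genes. Since the place was chosen from this contrast, these counts describe the genes and are no independent evidence.

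In the edgeR quasi-likelihood fit with group as the single term, 0 of the 7 genes were called, as were 0.0% of the tested genes. An unadjusted p under 0.05 was found for 3 of the 7 and for 130 of all 11525 tested genes. DESeq2 and limma on log2(RPKM + 0.1) also called 0. With DESeq2, 4 of the 7 and 191 of 23768 genes were under that unadjusted p, and with limma 5 of the 7 and 158 of 11525. The log2 fold changes, neuron over proliferating with 2 libraries per group, were 3.69 for Trim33 (SE 1.42), 3.22 for Bcas2 (SE 1.40) and 4.08 for Dennd2c (SE 1.34). They were 2.17 for Nras (SE 1.08), 2.15 for Sike1 (SE 1.12) and 1.38 for Hipk1 (SE 1.12). Leaving out neuron 2 lowered each of these values, to below 1 for Trim33, Bcas2, Sike1 and Hipk1 but not for Nras and Dennd2c. Without neuron 2, the log2 fold change was 0.60 for Trim33, 0.33 for Bcas2, 0.50 for Sike1, 1.39 for Nras, 2.42 for Dennd2c and -0.31 for Hipk1. Without proliferating 1 it was 3.44 for Trim33, 2.49 for Bcas2 and 1.60 for Sike1, and without proliferating 2 it was 3.99, 4.76 and 3.07. Without neuron 1 it was 4.59, 4.10 and 2.87, with 2.11 for Hipk1. Where a group was left with 1 library, that library was assumed to vary like the other group.

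**Figure D2:**
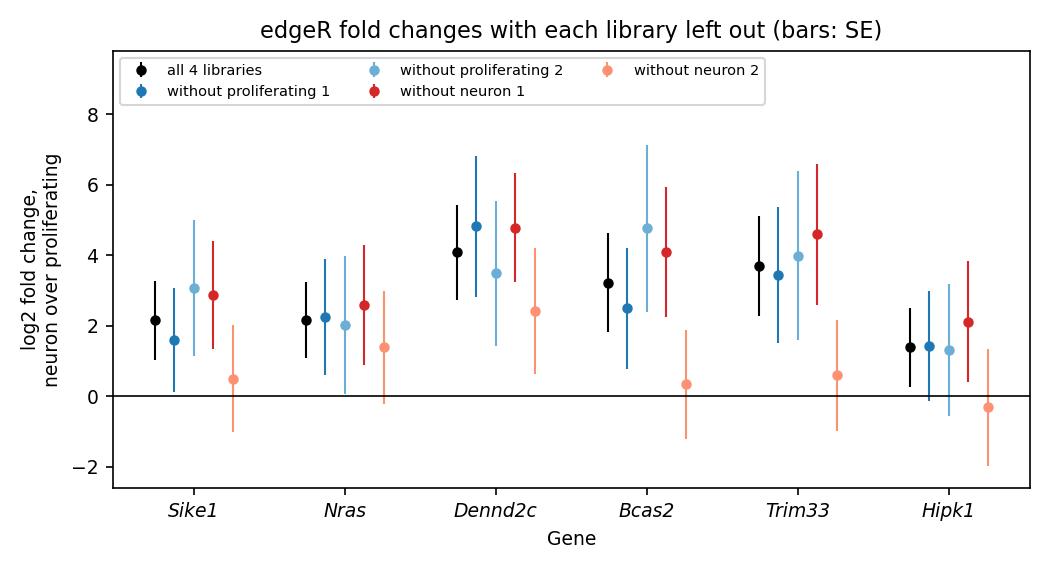
Log2 fold changes from edgeR (neuron over proliferating, vertical axis) for 6 genes, with all 4 libraries and with each library left out, and bars of 1 standard error. Leaving out neuron 2 brings Trim33 from 3.69 to 0.60 and Bcas2 from 3.22 to 0.33, a larger shift than for any other library.

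GC content was compared next, because the ratios depended on it across the whole table. Across 10822 tested genes with a GC value, which are not independent replicates, the Spearman correlation of exonic GC content with the log2 ratio was -0.27 for number 1 and -0.41 for number 2. AT-rich genes thus tended to have higher ratios. The 7 tested genes were richer in A and T than the median gene. Bcas2 had 42.87% G or C in its exons, Trim33 42.88%, Nras 42.96%, Sike1 43.68%, Dennd2c 45.01%, Hipk1 46.36% and Ampd1 48.03%, all below the median of 48.81%. The untested genes Syt6 (50.53%) and Olfml3 (52.20%) lay above it.

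For number 2 all 7 genes lay above the GC trend. At the GC content of Trim33, a spline through all genes stood at 0.32 for number 1 and 0.81 for number 2, where Trim33 itself was at 0.90 and 4.33. For Bcas2 the spline stood at 0.32 and 0.81, where the gene was at 1.87 and 3.37. For Nras it stood at 0.32 and 0.80, for Sike1 at 0.28 and 0.68, for Dennd2c at 0.19 and 0.45 and for Hipk1 at 0.10 and 0.23. After this trend was subtracted and the ratios were centred again, Trim33 was at 0.58 and 3.71, Bcas2 at 1.55 and 2.75, Nras at 0.98 and 2.06, and Sike1 at 1.14 and 1.81. Dennd2c was then at 1.49 and 4.80, and Hipk1 at -0.47 and 2.11. The median of the 7 went from 1.42 to 1.14 for number 1 and from 3.24 to 2.75 for number 2. Ratios above 1 for both numbers remained for 4 of 7 genes (Ampd1 through the prior count), against 4.05% of all tested genes after the same correction. Nras was below 1 for number 1. For number 2, 6 of 7 remained above 2 (Ampd1 through the prior count), against 5.3% of all tested genes, and Sike1 did not. Among the 3049 tested genes with a GC content between those of Bcas2 and Ampd1, the median ratio was 0.16 for number 1 and 0.12 for number 2, and the 90th percentile was 1.37 and 1.57. For number 2 the 7 genes were above that percentile, Ampd1 again only through the prior count. For number 1, Trim33, Nras and Hipk1 were below it.

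**Figure D3:**
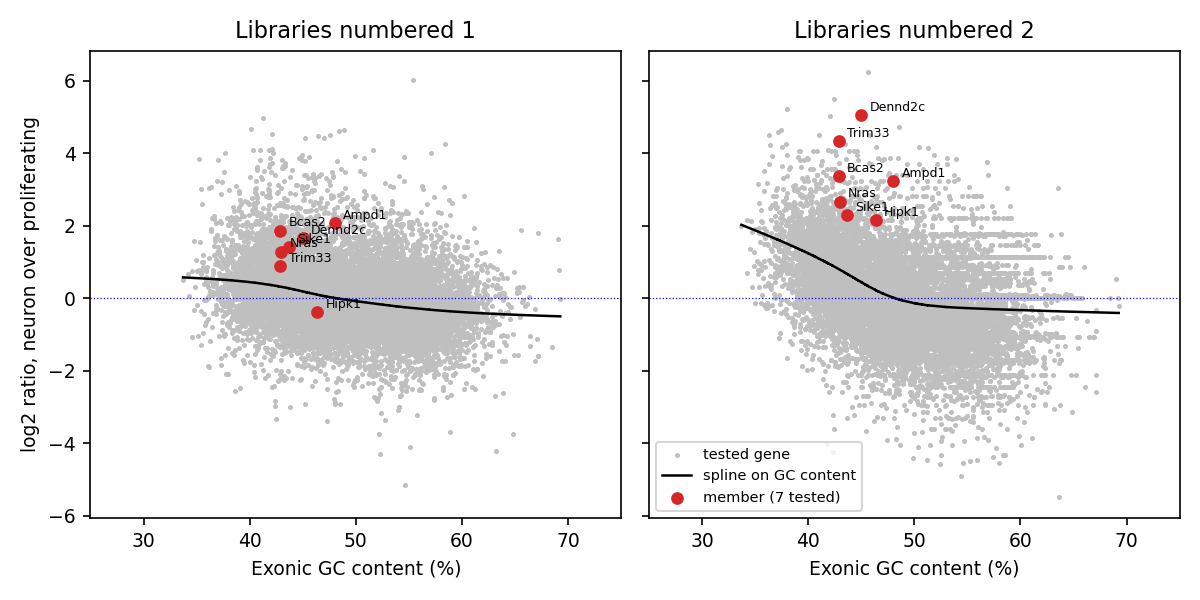
Log2 ratio of neuron over proliferating (vertical axis) against exonic GC content in percent, for all tested genes (grey), the spline through them (black) and the 7 tested genes (red), with a panel for each library number. For number 2 the 7 genes lie above the line, from 2.15 for Hipk1 to 5.06 for Dennd2c (Ampd1 rests on the prior count), and for number 1 Hipk1 lies below it at -0.37.

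Other genes of the same stretch were read off by position. Gm15886, antisense to Hipk1, passed the filter and had 0 and 1 counts against 19 and 22, and a ratio of 3.71 for number 2 (1.95 to 9.95 without a prior count). Atg4a-ps, Gm25199 and Gm25869 did not pass it and had at most 2 counts in a library.

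The tested genes just outside the stretch are given next. The nearest tested gene before Sike1, Sycp1, had 2 and 3 counts against 9 and 15, with log2 ratios of -1.06 and 2.14. The nearest after Hipk1, Dclre1b, which encodes a telomere nuclease, had 5 and 32 counts against 169 and 76 and ratios of 1.38 (0.23 to 3.12) and 1.35 (0.76 to 2.01). Next to it, Ap4b1 had ratios of -0.09 and 2.08, and Bcl2l15 had 0 counts in both proliferating libraries and 17 in each neuron library, which puts its log2 ratio for number 2 at 2.17 or more by the exact interval. Further out, Rsbn1 was at 0.29 and 1.49, Phtf1 at 0.72 and 0.20, Magi3 at -0.24 and 0.95 and Lrig2 at -0.72 and 0.98. Slc16a1, which encodes a lactate transporter, was high for number 1 alone, at 1.92 (1.41 to 2.54) against 0.05 (-0.25 to 0.35) for number 2. Over the 10 tested genes within 1 Mb after the stretch, the median was 0.40 for number 1 and 0.96 for number 2. With Bcl2l15 at its bound it was 0.12 and 0.96. Over the 3 genes within 1 Mb before, Casq2, Vangl1 and Sycp1, it was 0.57 and 2.11. Over the other 554 tested genes of chromosome 3 it was 0.06 and 0.24. With the GC correction the number 2 medians were 0.52 after the stretch, 1.65 before it and 0.03 over those 554 genes. These differences between places were not tested.

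Ratios for number 2 were also counted in distance bands set after the data were examined. All 4 tested genes between 1 and 2 Mb before the stretch and all 10 between 2 and 5 Mb before it had a ratio above 0, with medians of 0.70 and 1.48. Between 5 and 10 Mb before it, 52 of 75 did, with a median of 0.52. After the stretch, 4 of 8 genes between 1 and 2 Mb and 18 of 33 between 2 and 5 Mb were above 0, with medians of -0.01 and 0.07. Between 5 and 10 Mb after it, 5 of 7 were, with a median of 0.55. Among all tested genes, 5705 of 11525 had a number 2 ratio above 0. With the GC correction the medians of the bands before the stretch were 0.89, 1.4 and 0.78, from the nearest band outward. Those of the bands after it were -0.81, 0.31 and -0.12. For number 1 the band from 2 to 5 Mb before had 5 of 10 genes above 0 and a median of 0.00.

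**Figure D4:**
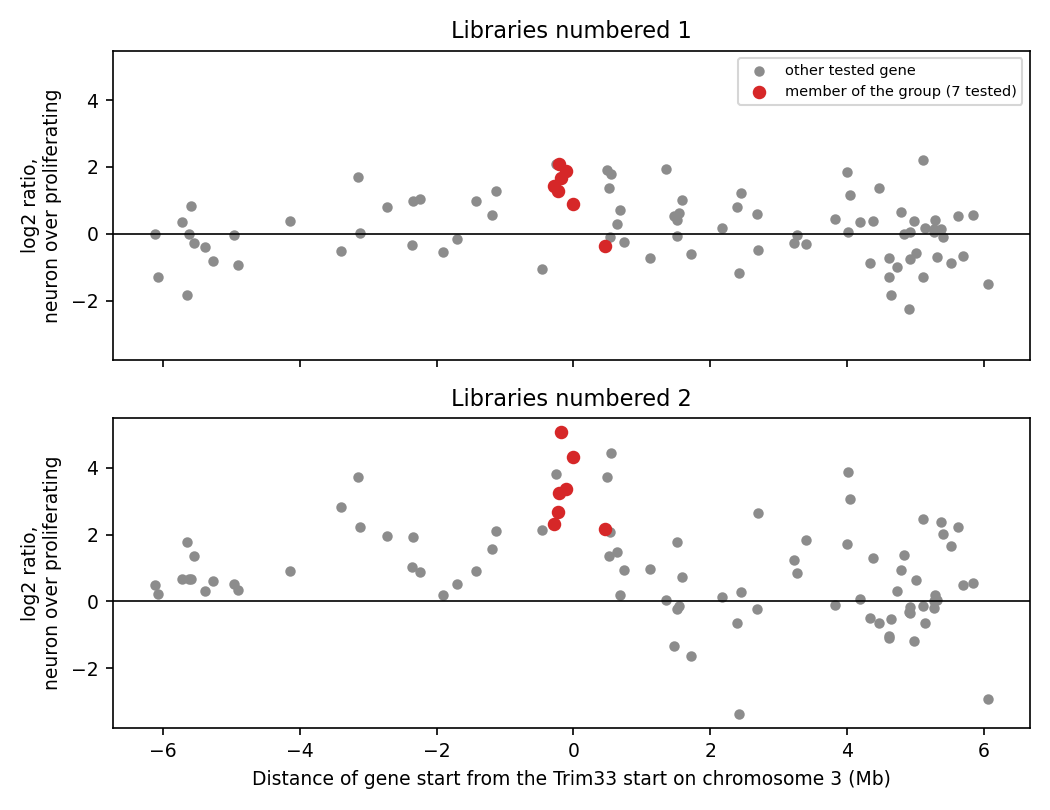
Log2 ratio of neuron over proliferating (vertical axis) of every tested gene within about 6 Mb, against the distance of its start from the Trim33 start in Mb, with the 7 tested genes in red and a panel for each library number. For number 2 all red points lie above 2, Ampd1 only through the prior count. The genes 2 to 5 Mb to the left all lie above 0 for number 2. For number 1 the red points lie between -0.37 and 2.08, the upper value being Ampd1, which rests on the prior count.

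The partners of these genes elsewhere in the genome were looked at for the same contrast. In 9 lists of relatives and pathway partners, 97 of 126 genes were tested. The edgeR fit with group alone called 0 higher and 0 lower, as it did over all tested genes. An unadjusted p under 0.05 was found for 0 of the 97, against 130 of all 11525. DESeq2 and limma on log2(RPKM + 0.1) also called 0, with 0 and 1 under that p, against 191 of 23768 and 158 of 11525. Since these fits called no gene at all, the 0 calls cannot set the partners apart. Of the 97 genes, 25 (25.8%) had ratios above 0 for both numbers, against 27.0% of all tested genes. Of 11 tested TIF1 and SMAD genes, 2 were above 0 for both numbers and 5 below, with medians of -0.54 and -0.13. Trim28, a relative of Trim33 and a corepressor, had log2 ratios of 0.12 and -0.57, and Smad4, the shared SMAD, had -1.02 and -0.62. The 12 genes of the PRP19 complex and its partners had medians of 0.45 and -0.58, with 0.27 and -0.09 for the spliceosome core gene Prpf8 and 0.88 and -0.71 for Wbp11.

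Of 23 genes of the RAS to ERK cascade, 7 were above 0 for both numbers and 8 below, and the medians were -0.18 and 0.09. Nf1, which encodes a RAS inhibitor, was at -0.77 and 0.54. The 8 tested HIPK relatives and partners had medians of 0.20 and -0.36, with -0.40 and -0.90 for Hipk2. The 13 genes of the TBK1 and IKK-epsilon module had medians of -0.01 and -0.17, with -0.01 and 1.00 for the scaffold gene Strn3 and 1.54 and -0.22 for Fgfr1op2. The 14 DENN and RAB genes had medians of -0.44 and -0.44, with 0.16 and -0.74 for Rab10 and -1.76 and -0.96 for Dennd5a. Among 11 AMP and purine genes the medians were 1.01 and -0.22, with 1.40 and 0.79 for the GMP synthase gene Gmps. Only 4 of 14 synaptotagmins were tested, with -1.54 and -1.78 for Syt11, and of the olfactomedin list only Olfm2 was, at -1.28 and -1.39.

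The genes with the pattern most like Trim33 were partly its neighbours. Likeness was the Euclidean distance between log2 CPM values over the 4 libraries, each centred on the gene mean. These values used TMM scaling and a prior count of 2. Only genes whose mean log2 CPM reached 4 were taken, without predicted genes, clone names, pseudogenes and small RNA genes. The 5 closest included Wdr3 at 1.02, Bcas2 at 1.21, the imprinted non-coding RNA gene Kcnq1ot1 at 1.27 and the chromatin remodeller gene Atrx at 1.52. Wdr3, a gene of ribosome assembly, lies on chromosome 3 at 100138180 to 100162407, and was at 40 and 96 counts in proliferating 1 and 2, and at 1582 and 1180 in neuron 1 and 2. Its log2 ratios were 1.69 and 3.73, and 1.55 and 3.59 after the GC correction. Kcnq1ot1 lies on chromosome 7 and had ratios of 1.29 and 2.70, and Atrx lies on the X chromosome with 0.88 and 2.18. Their exons were 40.31% and 37.61% G or C. All 11525 tested genes were also ranked, including low ones and the kinds set aside above. Bcas2 then came 17th, Sike1 72nd (distance 1.52), Dennd2c 167th (1.77), Ampd1 390th (2.04, resting on the prior count), Hipk1 449th (2.10) and Nras 490th (2.13). All of these thus ranked among the closest 490 of the 11525 tested genes, while many genes elsewhere ranked ahead of Ampd1, Hipk1 and Nras. The place was chosen from this contrast, so the ranks are a description. The counts cannot tell a higher level per cell from a larger share of cells that express these genes.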

How the data were processed

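Total RNA of 4 libraries was depleted of ribosomal RNA and made into stranded libraries, per the labels' protocols. The submitters' processing notes name the mm10 build and the tools featureCounts, HISAT2, DESeq2 and SAMtools. Their versions, the annotation and the strand setting are not given in the sources used here. The authors deposited raw counts per gene and RPKM values, which scale counts by gene length and by library totals that include ribosomal RNA. Gene lengths recovered from both units matched across libraries (relative tolerance 0.001) for 17709 of 17709 genes checked. Positions and exonic GC content (the union of annotated exons) came from GENCODE M21 on the same build, with a GC value for 93.9% of tested genes.

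Raw counts were fitted with edgeR 4.0.16 (quasi-likelihood test, TMM scaling, filterByExpr, ribosomal RNA genes kept), which left 11525 genes; p-values were adjusted by Benjamini-Hochberg over them, with a threshold of 0.05. DESeq2 1.42.0 and limma 3.58.1 (log2 RPKM with pseudocounts of 0.1 and 1) were alternatives. Within-number log2 ratios used log2 CPM with a prior count of 2 and were centred on the median of tested genes; before centring that median was 0.19 and 0.00, and with library totals alone 0.47 and 1.45. Intervals are exact binomial and, like the limit of 3 counts, cover counting error only. The GC correction subtracted a spline with 5 degrees of freedom per library. The fits were also run on simulated counts with a fixed spread that was not estimated from these libraries. That run checks the code and does not show how well the fits work here. The genes, lists and tests were chosen with earlier results of these data known. The rule named all 9 genes, the listed genes past the threshold or else the 2 with the highest level in a list, the tested protein-coding genes of the region and the 5 genes most like Trim33. Some genes that this rule names are not reported here.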

Additional observations from a re-analysis of the deposited data

How the results depend on the processing

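With group alone, 0 genes were called under each of the other scalings, filters and tools run and with each library left out in turn (range 0 to 0), so these counts say nothing about stability. The libraries share only a number in the labels. Deviations of proliferating 1 and neuron 1 from their group means had a Pearson correlation of 0.69 across genes. With the replicate number as a block, edgeR called 57 genes (42 higher, 15 lower), with log2 fold changes of 2.74 for Trim33, 2.77 for Bcas2 and 3.90 for Dennd2c, all called. Calls with the block numbered 67 with DESeq2 size factors, 3 with library totals alone, 37 with the GC correction, 92 with the length correction and 933 in limma on log2(RPKM + 1). They numbered 87 with ribosomal RNA genes set aside before filter and scaling, a setting chosen after the data were examined. Trim33 was not called with the block and the GC correction (2.27), DESeq2 size factors (2.62) or the length correction (2.57), and Bcas2 not with the GC correction (2.30). With the block and library totals alone, Trim33, Bcas2 and Dennd2c all lost their calls (edgeR adjusted p = 0.216, 0.138 and 0.0668). The cause was not tested. The median log2 fold change of the 7 tested genes was 3.22 (2.17 with Ampd1 at its bound) and ranged from 0.60 without neuron 2 to 4.10 without neuron 1. The value of Hipk1 reversed without neuron 2, from 1.38 to -0.31, with a highest value of 2.11 without neuron 1. The number 2 median stayed between 2.75 and 3.44, and that of number 1 between 1.14 and 1.43, under the corrections, scalings and prior count run. Depth limited Ampd1, Syt6, Olfml3 and Dennd2c, each with 3 counts or fewer in proliferating 1.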

Other observations

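When tested genes were grouped into bins of 1 Mb by their start, 855 bins of the genome held at least 5 of them. The bin of chromosome 3 that begins at 103 Mb, with 13 genes, had the highest median log2 ratio for number 2, at 3.24, and also after the GC correction, at 2.71. Next after that correction came the bin of the same chromosome at 100 Mb, with 5 genes and a median of 1.97. For number 1 the bin at 103 Mb ranked 4 of 855, at 1.38, and that at 100 Mb ranked 46, at 0.80. With the GC correction these number 1 ranks were 10, at 1.11, and 89, at 0.49. In the 103 Mb bin, Ampd1, Gm15886 and Bcl2l15 had 0 counts in proliferating 1, so their ratios rest on the prior count. At the bound of 3 counts their number 1 ratios were -0.73, -0.94 and -1.1. The number 2 ratio of Ampd1, 3.24 like the median of that bin, was 1.34 at the bound. Ranks at the bound are not given. The region was known to hold called genes before the bins were drawn, so the ranks are a description.

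With the replicate number as a block, 8 of the 42 genes called higher lay on chromosome 3, which held 5.0% of the tested genes. The place was chosen from 3 of these 8 calls (Trim33, Bcas2 and Dennd2c), which raises that share. Beside Trim33, Bcas2, Dennd2c and Wdr3 these included Gabpb2 (95181766 to 95217916), which encodes a subunit of the transcription factor GABP, and the distant mitotic genes Cenpe and Depdc1a. Gabpb2 was at 38 and 54 counts in proliferating 1 and 2, and at 1411 and 462 in neuron 1 and 2, with log2 ratios of 1.60 and 3.20. Cenpe had larger ratios for number 1 than for number 2, at 3.73 and 3.20.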
